A study of Arabidopsis thaliana with 12 samples.

Results

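A set of 39 genes in Arabidopsis thaliana was picked for like mean signal in the toc34 mutant and in wild type (WT) and for small spread between arrays. These genes, called the steady genes here, are described below by role, level and spread. RNA of the toc34 mutant, ecotype Columbia 0 (6 arrays, replicates 1 to 6), and of WT, ecotype Columbia 0 (6 arrays, replicates 1 to 6), was measured on 1 array per sample. The mutant is labelled as impaired in bringing proteins across the outer membrane of the chloroplast envelope. The labels give no allele, tissue, age, growth condition or treatment, and leave unsaid if each array stands for its own plant. All spreads below are therefore spreads between arrays and may be technical.

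Most chloroplast proteins are encoded in the nucleus, made in the cytosol and carried into the organelle through translocons in its outer and inner envelope membranes. TOC34 is a GTP-binding receptor of the outer translocon, with TOC33 as its close paralog. The state of the chloroplast is known to feed back on transcript levels of nuclear genes, above all those of photosynthesis. Genes with like signal in a mutant and its control are the usual yardstick for such comparisons, as normalization assumes that part of the transcripts holds still.

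The members were picked by their values, so their small differences and spreads are the rule itself and are given as a description. Of 3439 spots, 692 carried exactly 1 gene in the platform annotation, 478 of these had a value above 0 on all 12 arrays, and 419 of those had a WT median intensity under 1. Each value was taken as log2 intensity minus the median log2 of the values above 0 on its array, called the centred log2 value. A difference of genotype means under 0.3 in size, which is a fold of 1.23, left 115 genes. An SD under 0.5 over the 6 arrays of each genotype left 39, and in all 39 the ranges of the genotypes overlapped. The same limits on values were met by 9.31% of the 419 single-gene spots, 9.5% of 516 comparable spots with several genes and 11.7% of 1058 comparable spots with no gene listed.

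**Figure D1:**
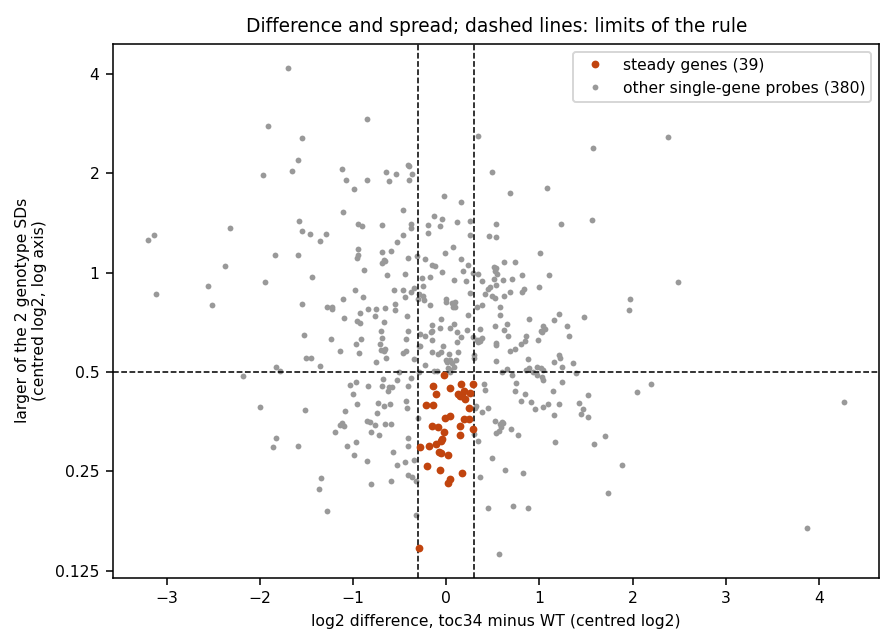
Log2 difference (toc34 minus WT, centred log2, x axis) against the larger of the genotype SDs (centred log2, log axis) for 39 steady genes and 380 other single-gene probes above 0 on all arrays with a WT median under 1. The dashed lines are the limits of the rule at 0.3 and 0.5, which alone place the coloured points.

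The limits cut through a continuous field of values. Closest inside the limit on the difference lay AT3G51510 (0.29), AT1G54500 (-0.29) and AT4G13200 (0.29), and closest outside lay AT4G00870 (0.30), AT3G28460 (0.30) and AT1G51080 (-0.31). On spread, AT4G29750 was the last inside at an SD of 0.491, and AT1G62780 (0.50), AT5G19900 (0.50) and AT3G56130 (0.503) were the first outside. With every other limit met, 56 genes missed the set by their difference, 76 by their spread and 7 by a WT median of 1 or more. AT4G21170 had the highest WT median inside, 0.919, and AT4G27250 the lowest outside, 1.11.

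The arrays themselves differed in scale. Summed intensity ran from 1988 to 3105 in toc34 and from 2641 to 3553 in WT, with 2784 to 2974 spots above 0 per array, and the medians of log2 intensity were up to 0.50 apart. For this reason levels are given below as multiples of the median of the values above 0 on the same array. No spot was annotated to TOC34 or TOC33 alone, so the signal of the mutated gene could not be set beside the labels. The fixed marker lists of seed, root and flower had 0 spots, so the tissue was not checked. RNA of whole samples was measured, so fewer cells of a type and less RNA per cell cannot be told apart. Spots measure different probes, so a level of one gene is not set against that of another beyond placing it above or below its array's median.

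**Figure D2:**
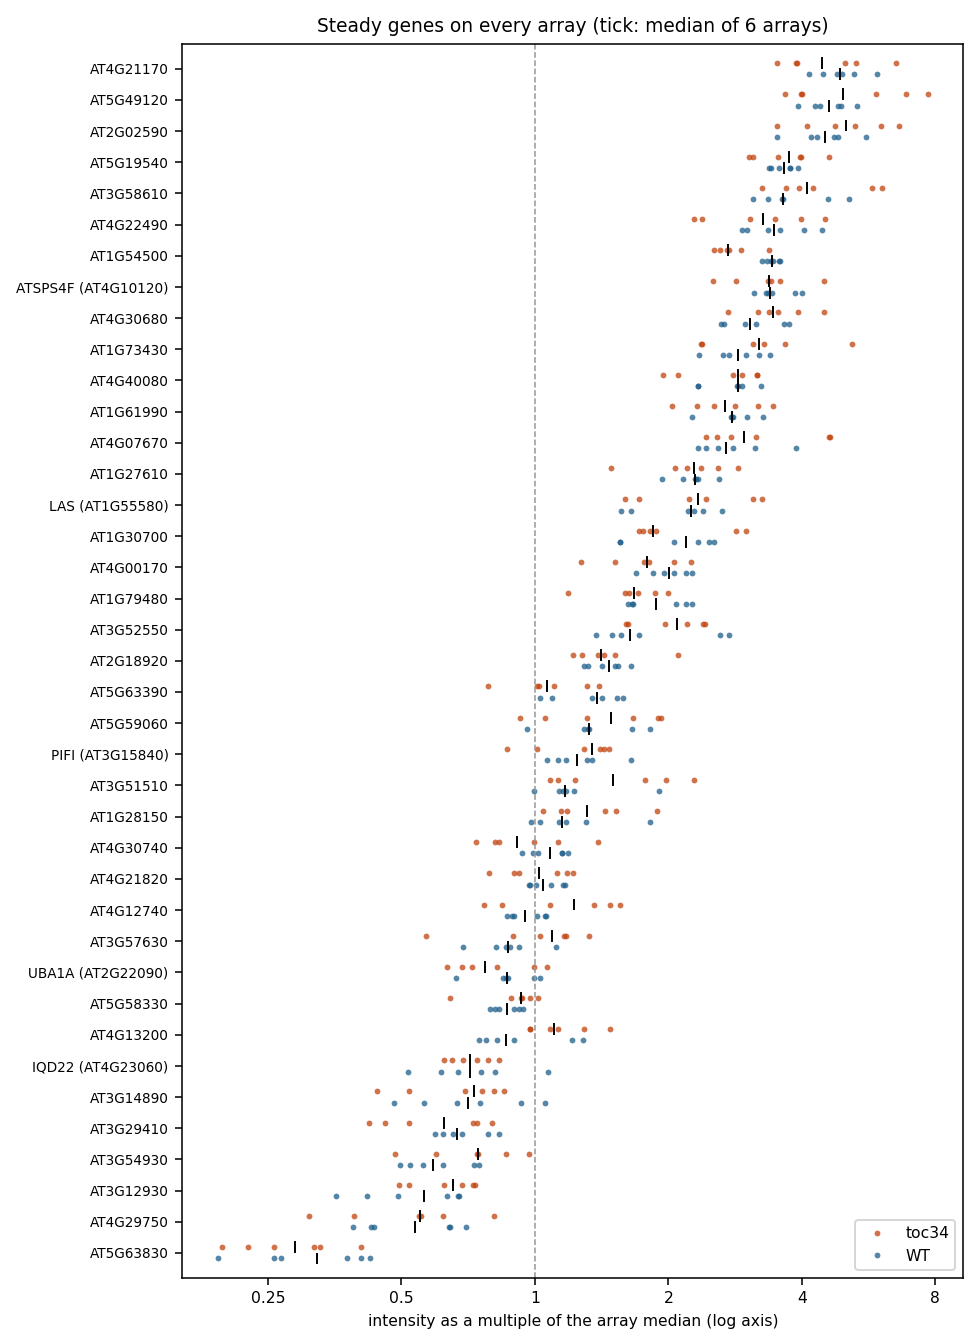
Intensity of the 39 steady genes on each of 12 arrays, as a multiple of the array median (log axis), with toc34 above WT in each row and a tick at the median of 6 arrays. Rows run from AT5G63830, with a WT median of 0.322, up to AT4G21170 with 4.87, and the genotypes overlap in every row.

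Among the genes tied to the chloroplast or to organelle gene expression, 7 are given first, and a plastid enzyme of amino acid synthesis follows with metabolism. AT1G54500, which encodes a rubredoxin-like protein of the thylakoid known to act in photosystem II assembly, had the smallest spread of the set. Its signal ran from 2.53 to 3.37 times the array median in toc34 (median 2.73), against 3.25 to 3.57 in WT (median 3.42). Only toc34 replicate 3 reached into the WT range, and without that array the genotypes did not overlap. Its SD was 0.15 in toc34 and 0.05 in WT on the log2 scale (n = 6 each), so its difference of -0.29 was larger than either SD although it lay within the limit of the rule.

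AT5G58330, the chloroplast NADP-dependent malate dehydrogenase that exports reducing power as malate, lay at 0.643 to 1.02 times the array median in toc34 (median 0.932) and at 0.790 to 0.941 in WT (median 0.864). The WT values lay inside the toc34 range, and the log2 difference was 0.04. PIFI (AT3G15840), named for the rise in chlorophyll fluorescence after illumination and linked to chlororespiration, lay at 0.865 to 1.47 in toc34 (median 1.35), against 1.06 to 1.65 in WT (median 1.24), a log2 difference of -0.05. Each genotype spanned the median of the other.

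AT4G21170, a pentatricopeptide repeat protein of the class that binds organelle RNA, ran from 3.52 to 6.51 times the array median in toc34 (median 4.45) and from 4.16 to 5.91 in WT (median 4.87). AT1G61990, a member of the mTERF family of organelle nucleic acid-binding proteins, ran from 2.04 to 3.45 in toc34 (median 2.68) and from 2.26 to 3.27 in WT (median 2.79). In both genes toc34 held the lowest and the highest array, and the differences were -0.09 and -0.06. AT4G29750, which has the CRM domain found in chloroplast splicing factors, had the largest SD of the set in toc34 (0.49 on the log2 scale) and lay below the array median on all arrays, at 0.310 to 0.807 in toc34 (median 0.551) and 0.389 to 0.699 in WT (median 0.536). AT3G12930, an Iojap-related protein, of a family that acts on ribosomes, lay at 0.494 to 0.733 in toc34 (median 0.654) and 0.355 to 0.673 in WT (median 0.562), a difference of 0.25.

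Among 4 genes of metabolism the differences ran from -0.22 to 0.19. ATSPS4F (AT4G10120), a sucrose-phosphate synthase that makes the precursor of sucrose in the cytosol, lay at 2.52 to 4.49 times the array median in toc34 (median 3.38), against 3.13 to 4.01 in WT (median 3.40). The medians nearly coincided, while the toc34 arrays reached further on both sides. AT3G58610, the ketol-acid reductoisomerase of branched-chain amino acid synthesis in the plastid, lay at 3.25 to 6.07 in toc34 (median 4.10), against 3.10 to 5.12 in WT (median 3.62). In toc34 replicates 1 and 2 were the highest (6.07 and 5.77), while in WT replicates 3 and 4 were (4.58 and 5.12). AT1G30700, of the berberine bridge enzyme family of oxidases, had a difference of 0.04, and AT3G29410, of the terpene synthase family, had -0.22.

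The genes of the cell wall, glycans and secreted proteins numbered 4, with differences from -0.28 to 0.18. AT4G22490, a small protein of the lipid-transfer family, ran from 2.28 to 4.52 times the array median in toc34 (median 3.26) and from 2.94 to 4.45 in WT (median 3.47). AT5G63390, of the O-fucosyltransferase family, ran from 0.785 to 1.39 in toc34 (median 1.06) and from 1.03 to 1.58 in WT (median 1.38), with a difference of -0.28 close to the limit. AT1G79480, with a domain that binds the wall glucan callose in related proteins, had a difference of -0.20, and AT3G57630, an arabinosyltransferase of the exostosin family that acts on extensins, had 0.18.

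Trafficking was represented by 3 genes, with differences from -0.19 to 0.16. AT4G40080, of the family of clathrin assembly proteins that work in endocytosis, had a median of 2.87 times the array median in both genotypes, with a range of 1.94 to 3.17 in toc34 and of 2.33 to 3.24 in WT. AT1G73430, a subunit of the conserved oligomeric Golgi complex, ran from 2.37 to 5.20 in toc34 (median 3.2) and from 2.35 to 3.39 in WT (median 2.87). Its range in toc34 was the wider one, with replicates 4 and 6 (5.20 and 3.66) above every WT array. AT4G00170, a VAMP-associated protein of membrane contact sites, had a difference of -0.19.

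The genes that act on DNA, RNA and transcription numbered 6, with differences from -0.14 to 0.25. LAS (AT1G55580), the GRAS-family regulator LATERAL SUPPRESSOR that is needed to form axillary meristems, ran from 1.60 to 3.26 times the array median in toc34 (median 2.33) and from 1.56 to 2.64 in WT (median 2.25). AT4G30680, with the MA3 domain found in translation initiation factors of the eIF4G class, ran from 2.73 to 4.49 in toc34 (median 3.45) and from 2.63 to 3.75 in WT (median 3.06). AT5G63830, a HIT-type zinc finger protein, lay below the array median on all arrays, at 0.197 to 0.405 in toc34 (median 0.288) and 0.193 to 0.425 in WT (median 0.322). Its deposited intensity averaged 0.0525 ± 0.0125 in toc34 and 0.0621 ± 0.016 in WT (SD, n = 6 each).

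A pair of DNA repair genes stood among these 6. AT3G14890, a DNA 3′-phosphoesterase, had a difference of -0.11, and AT4G12740, related to the adenine DNA glycosylase MutY, had 0.25 with a wider range in toc34 (0.766 to 1.56) than in WT (0.866 to 1.06). UBA1A (AT2G22090), an RNA-binding protein that interacts with the oligouridylate-binding protein UBP1, had -0.11.

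Of the 4 genes assigned to signalling, AT4G21820, which carries calmodulin-binding motifs, lay near the array median, at 0.789 to 1.22 in toc34 (median 1.02) and 0.969 to 1.17 in WT (median 1.04). AT5G49120, of a plant family of zinc finger proteins with the FCS-like motif, lay at 3.66 to 7.69 in toc34 (median 4.95) and at 3.93 to 5.33 in WT (median 4.61). The WT arrays kept to a narrow band, while toc34 replicates 1, 2 and 6 (6.88, 7.69 and 5.89) were above every WT array. AT3G54930, a regulatory B′ subunit of protein phosphatase 2A, lay at 0.485 to 0.968 in toc34 (median 0.742) and at 0.495 to 0.747 in WT (median 0.589), with a difference of 0.24. IQD22 (AT4G23060), of a family of calmodulin-binding scaffold proteins, had a difference of -0.01, the closest to 0 in the set, and was one of the members with the smaller spread in toc34 (an SD of 0.16 in toc34 and of 0.36 in WT on the log2 scale).

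The remaining 11 genes are given without a role, and their differences ran from -0.16 to 0.29. The gene table gives no products, so some of these genes may also belong to the chloroplast. AT5G19540 ran from 3.04 to 4.61 times the array median in toc34 (median 3.75) and from 3.37 to 3.92 in WT (median 3.66), and its deposited intensity averaged 0.673 ± 0.0741 in toc34 and 0.708 ± 0.023 in WT (SD, n = 6 each). AT2G18920 ran from 1.22 to 2.11 in toc34 (median 1.41) and from 1.29 to 1.64 in WT (median 1.47). AT2G02590 ran from 3.51 to 6.62 in toc34 (median 5.03) and from 3.52 to 5.57 in WT (median 4.52). Those 3 had differences of 0.02, 0.02 and 0.14.

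AT4G13200 lay at 0.976 to 1.48 in toc34 (median 1.10) and at 0.746 to 1.28 in WT (median 0.859), and AT3G51510 at 1.08 to 2.29 in toc34 (median 1.5) and at 0.993 to 1.91 in WT (median 1.17). Both had a difference of 0.29, so these genes were near the edge of the set. The other 6 were AT1G27610 (difference -0.03), AT5G59060 (0.04), AT3G52550 (0.12), AT1G28150 (0.15), AT4G30740 (-0.16) and AT4G07670 (0.20).

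Over all 39 genes 20 differences were positive and 19 negative, with a median of 0.02. Among the 380 other single-gene spots of the same pool 180 were positive and 200 negative, with a median of -0.08. The mean centred log2 value over the 39 genes was 0.67 ± 0.07 in toc34 and 0.65 ± 0.07 in WT (SD, n = 6 arrays each). On single arrays it corresponded to 1.51 to 1.71 times the array median in toc34 and to 1.5 to 1.68 in WT. The steady genes lay above their array's median more often than the rest of the pool: 27 of 39 (69.2%) had a WT median over the array median, against 186 of 380 (48.9%). Over the whole pool of 419 the larger of the genotype SDs had a median of 0.49 for genes above the array median in WT and of 0.73 for the others, so the limit on spread and this level are not independent, and no test is given.

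Most steady genes had the wider spread in the mutant arrays, and a like share of the rest of the pool did too. The median SD of the steady genes was 0.33 in toc34 and 0.22 in WT on the log2 scale, and 32 of 39 genes (82.1%) had the larger SD in toc34. In the rest of the pool 315 of 380 (82.9%) did, with median SDs of 0.61 in toc34 and 0.30 in WT. The rule capped both SDs of the steady genes, so these values are a description of the set. From the lowest to the highest of 12 arrays, a steady gene spanned 1.41-fold (AT1G54500) to 2.61-fold (AT4G29750). In 26 of 39 genes this span was under 2-fold, against 11 of 380 others.

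In the comparison of toc34 with WT by limma over all tested spots, on quantile-normalized values, 36.0% of 2768 spots had a Benjamini-Hochberg adjusted p under 0.05, with 475 higher (17.2%) and 522 lower (18.9%) in toc34. On the deposited scale 335 were higher and 590 lower, so the share of increases among calls was 36.2% in place of 47.6%. Of the 39 steady genes 0 were called, and 0 had an unadjusted p under 0.05. They were chosen on this contrast, so the count follows from the choice. A p that misses the threshold does not show that levels were equal. The rule also limited the centre and the width of each gene's interval, which is given as a description only. The 95% interval of the limma difference had a median half-width of 0.41 on the log2 scale over the 39 genes, with bounds from -0.68 (AT5G63390) to 0.84 (AT4G07670). This fit takes the 6 arrays of a genotype as independent, and neighbouring arrays resembled each other, so these intervals are too narrow if those arrays are repeats. With neighbouring numbers as a random block the median half-width was 0.54 and the bounds ran from -0.82 to 1.04. With neighbouring numbers averaged it was 0.65, with bounds from -0.93 to 1.18. AT3G12930 with the block, and AT4G07670 with averaging, then reached past a 2-fold difference.

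**Figure D3:**
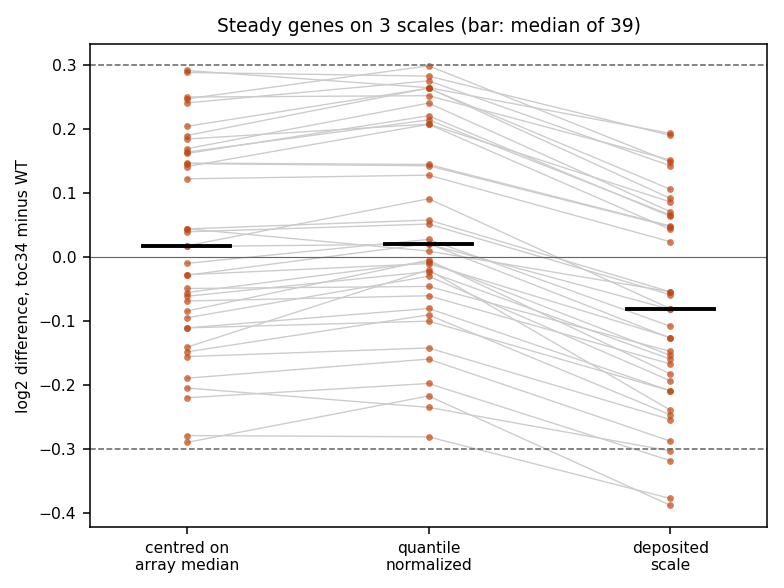
Log2 difference (toc34 minus WT) of each of the 39 steady genes with arrays centred on their medians, quantile-normalized, and on the deposited scale, with grey lines joining a gene and bars at the median of 39 genes. The medians are 0.02, 0.02 and -0.08, and dashed lines mark the limit of 0.3.

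The set depended on how arrays were put on one scale, as the plot of differences on 3 scales shows. With quantile normalization the 39 differences ran from -0.28 to 0.30, all 39 stayed under 0.3 in size, and 37 genes met the whole rule. AT4G07670 and AT5G49120 did not, as an SD of each passed 0.5. On the deposited scale the differences ran from -0.39 to 0.19 with a median of -0.08, and 25 of the 39 met the rule, while the median difference of all tested spots was -0.20 there, -0.10 with centred values and -0.05 with quantile normalization. On centred values 1 member, AT1G54500, had an unadjusted limma p under 0.05 (adjusted p = 0.0809), and on deposited values 1 did, AT5G63390 (adjusted p = 0.0917).

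Behind the small mean differences lay larger ones in subsets of the arrays. Arrays with neighbouring replicate numbers (1 and 2, 3 and 4, 5 and 6) resembled each other more than other arrays did. For a steady gene neighbouring arrays were typically 0.24 apart in toc34 and 0.15 in WT on the log2 scale, and other arrays of the genotype 0.38 apart in toc34 and 0.28 in WT (medians over 39 genes). Arrays of different genotype with the same number were 0.29 apart, and with different numbers 0.31. In the rest of the pool neighbouring arrays were also closer, 0.44 apart in toc34 and 0.18 in WT, against 0.69 and 0.38 for other arrays of the genotype. The distances between genotypes were 0.74 and 0.82 there. The rule limited the differences and spreads of the steady genes, so their smaller distances follow from the choice.

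**Figure D4:**
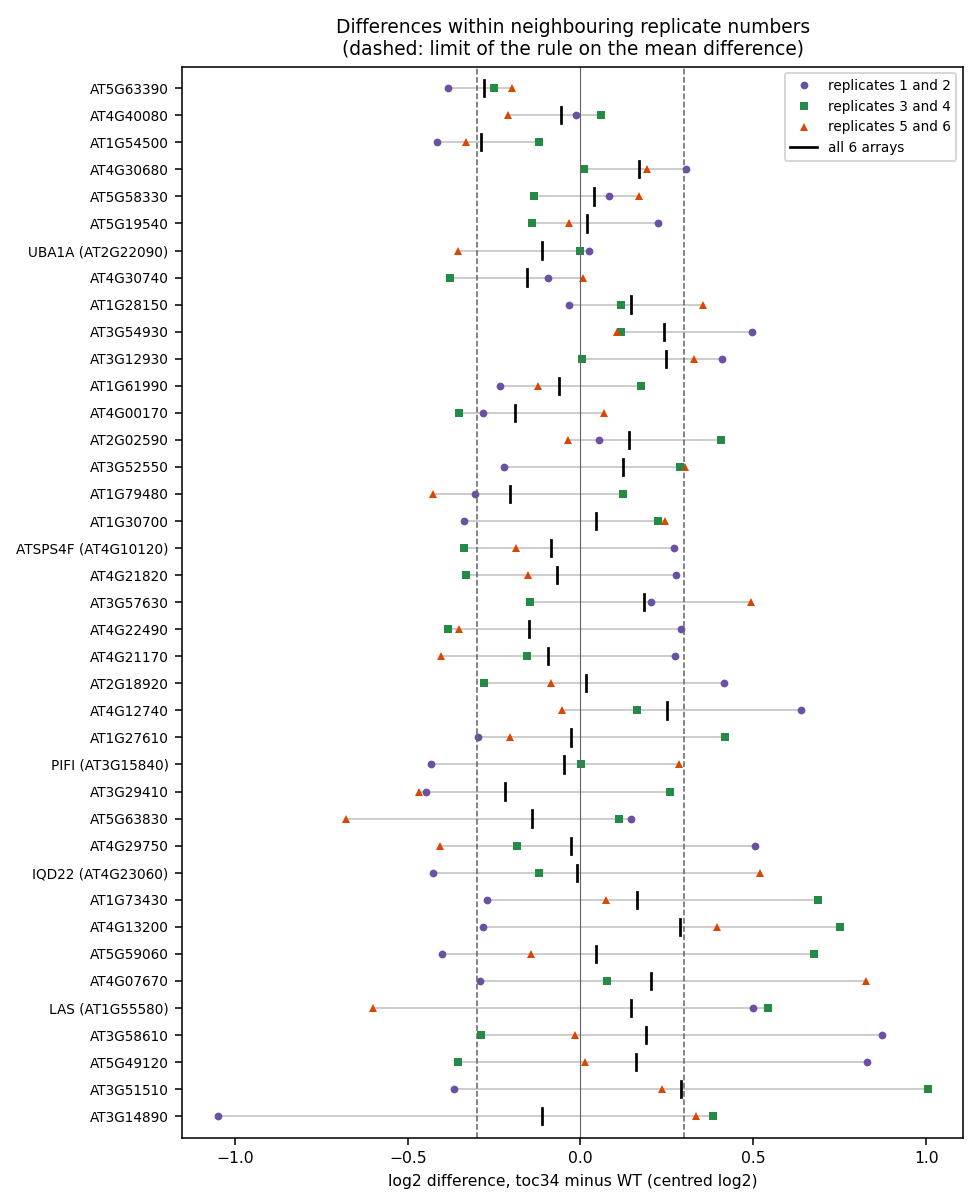
Log2 difference (toc34 minus WT, centred log2) of each steady gene within replicates 1 and 2, 3 and 4, and 5 and 6, with a black tick for all 6 arrays per genotype and dashed lines at 0.3. Genes are ordered by the span of their 3 values, from 0.19 for AT5G63390 at the top to 1.43 for AT3G14890 at the bottom.

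Within replicates 1 and 2 the difference was under 0.3 in size for 20 of 39 genes, within 3 and 4 for 25, and within 5 and 6 for 22. In each of the 3 subsets 4 of 39 genes (10.3%) kept under 0.3, namely AT1G61990, AT4G40080, AT5G19540 and AT5G58330, against 7 of 380 others (1.84%). In 13 of 39 genes (33.3%) at least 1 subset had a difference over 0.5 in size, against 360 of 380 others (94.7%). The subsets were averaged into the value the rule used, so the counts describe how that value came about. The labels do not state that toc34 and WT arrays of like number belong together. The matching of subsets is therefore assumed, here and for the single genes below.

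AT3G14890 showed the widest swing. It had 0.519 and 0.440 times the array median in toc34 replicates 1 and 2, against 1.05 and 0.929 in WT replicates 1 and 2, a log2 difference of -1.05. Within replicates 3 and 4 and within 5 and 6 its differences were 0.38 and 0.33, so opposite values cancelled in its mean. In AT3G51510 the differences were -0.37, 1.0 and 0.24 for the 3 subsets in order of number, and in LAS 0.50, 0.54 and -0.60.

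Differences of AT5G49120 (0.83) and AT3G58610 (0.87) within replicates 1 and 2 went with high toc34 arrays, and the difference was negative within 3 and 4, at -0.35 and -0.29. The sign was the same in all 3 subsets for 5 of 39 genes (12.8%), against 231 of 380 others (60.8%), which differ more on average by the rule. Those 5 were AT1G54500 (-0.42, -0.12 and -0.33), AT5G63390 (-0.38, -0.25 and -0.20), AT4G30680 (0.31, 0.01 and 0.19), AT3G54930 (0.50, 0.12 and 0.11) and AT3G12930 (0.41, 0.00 and 0.33).

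A second spot, which the rule did not use, was available for 2 of the genes, in each case shared with related genes. The one that AT1G61990 shares with 3 others, among them AT1G61960, had a difference of -0.11 in centred log2 value, with 0.752 to 3.74 times the array median in toc34 (median 1.34) and 1.41 to 2.04 in WT (median 1.82). By limma its difference was -0.14 (SE 0.33, adjusted p = 0.774). The toc34 arrays enclosed the WT range, with an SD of 0.88 in toc34 and 0.19 in WT, so this spot itself missed the limit on spread.

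The one that AT5G63390 shares with AT3G07900 and AT2G44500 had a difference of -0.35 in centred log2 value, with 0.422 to 1.15 times the array median in toc34 (median 0.916) and 0.953 to 1.12 in WT (median 1.07). By limma its difference was -0.32 (SE 0.23, adjusted p = 0.292). It had the sign of the gene's own spot, and its values overlapped between the genotypes. Signals of the related genes on such spots cannot be told apart.

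None of the steady genes was on the fixed list of 25 reference genes commonly used in Arabidopsis, of which 1 had a spot of its own. That gene, AT2G28390, a SAND-family protein, ran from 0.590 to 2.87 times the array median in toc34 (median 0.927) and from 0.640 to 0.987 in WT (median 0.787). Its difference in centred log2 value was 0.51, with an SD of 0.96 in toc34 and 0.28 in WT, and it was not called by limma (difference 0.48, SE 0.36, adjusted p = 0.318). Another 3 spots were shared by a listed reference gene and other genes. The spot of AT5G15710, an F-box protein gene, and 1 other gene was higher in toc34 (limma log2 difference 1.74, SE 0.16, adjusted p = 8.96e-06). Of 2 spots of AT1G58050, an RNA helicase gene, and 2 other genes, one was called lower in toc34 (limma log2 difference -1.13, SE 0.29, adjusted p = 0.00976) and the other was not called (limma log2 difference -1.04, SE 0.41, adjusted p = 0.0643). The fixed list of 26 genes of chloroplast protein import had 0 spots of their own. One spot was shared by a locus on that list, AT2G16460, and 1 other gene. The gene table names AT2G16460 only by its locus number, and its place on the list was not checked. The spot is therefore not read as that of an import gene. Its signal was higher in toc34 (limma log2 difference 0.51, SE 0.15, adjusted p = 0.0175), while its difference in centred log2 value was 0.25.

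By position, 13 of the 39 loci (33.3%) were on chromosome 4, against 54 of the other 380 (14.2%). Chromosome 1 held 8, chromosome 2 held 3, chromosome 3 held 9 and chromosome 5 held 6. The median gene length was 1980 bp for the steady genes and 2226 bp for the 378 others with a length in the gene table. Position and length were looked at with the members known, and no test was made of either.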

How the data were processed

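Total RNA of 6 toc34 and 6 WT samples was measured on 1 array each, and the titles of the samples gave genotype and replicate number. As deposited, a spot holds 1 number, taken here as an intensity on a linear scale, from the values themselves, with a lowest value of 0 and a ceiling of 100. The authors' background correction, scaling and scanner are not given in the sources used here. A background set to 0 would leave dim spots with more spread. None of the 468 values of the steady genes was near the ceiling (0.031 to 1.47).

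Genes were named from the platform annotation of 2016, updated by gene identifier through RefSeq genes (TAIR10.1), a table that held 690 of the 692 single genes. That table gives no gene products, so the roles stated are background knowledge, and the grouping by role was made with the values known. Coordinates are left out, as the array's own build is unknown. The members, gene lists and tests were chosen with earlier results of these data known. The rule also leaves out AT4G01310 and AT3G13120 by name, which miss the limit on the difference. Genes given with full values were the 8 members with the smallest pooled SD, the 6 with the highest and 4 with the lowest WT signal, those nearest inside a limit, and up to 3 per function class read from names in the gene table. Those classes caught only 2 members, LAS by a stray letter string, and were not used further. Other members were added by role.

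For the comparison across spots, values of 0 were taken as missing, log2 intensities were quantile-normalized, and spots with at least 4 values in each genotype were fitted in limma (version 3.58.1, R version 4.3.3; lmFit, then eBayes), with Benjamini-Hochberg adjustment and two-sided p-values. The procedure was tested on simulated data in which all arrays were drawn independently. The resemblance of neighbouring arrays was not simulated, so that test does not cover its effect on the calls. Arrays of equal number in toc34 and WT deviated together from the means of their genotypes (r = 0.12 to 0.26 across the tested spots, which are not independent replicates, and over 0.1 for each number). Over the 39 steady genes alone this r ran from -0.20 to 0.16. A replicate block was therefore fitted as well, on a pairing that the labels do not state. Neighbouring numbers were also averaged or taken as a random block (consensus correlation 0.54, statmod 1.5.0). Other summaries were made in Python 3.11.15 with pandas 2.3.3. The number of arrays limits the precision.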

Additional observations from a re-analysis of the deposited data

Results flagged for a closer look

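For each steady gene and genotype, 78 groups of 6 arrays in all, the gap between an extreme array and its nearest neighbour was divided by the group's whole range and compared with Dixon's 95% critical value. That value was passed in 2 of the groups. Chance flags about 1 in 20 groups (3.9 of 78), but the rule had already limited the spread of these groups and neighbouring arrays resembled each other, so the count is not read against that number. AT5G58330, the chloroplast malate dehydrogenase, reached a ratio of 0.691 among toc34 arrays. Replicate 3 was at 0.643 times the array median and the other 5 arrays between 0.882 and 1.02. AT3G51510 reached 0.681 among WT arrays. Replicate 2 was at 1.91 times the array median and the others between 0.993 and 1.22. Without WT replicate 2 the difference of AT3G51510 was 0.42 in place of 0.29, over the limit of 0.3, and the gene left the set.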

How the results depend on the processing

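The number of genes that met the rule was 39 and stayed within 1.5 times (27 to 53) under the alternatives of scale, averaging, limits and single arrays, except for 83 with an offset of 0.0411 added before the logarithm (median SD of the 39 genes 0.25 in place of 0.29) and 60 with an SD of up to 0.6 allowed. With 1 array left out it was 39 to 48, and 33 to 39 of the original 39 were kept, fewest without toc34 replicate 4. The median difference of the 39 was -0.03 to 0.03 with 1 array left out, and -0.03 to 0.01 within pairs of neighbouring numbers, which were added after seeing the data. The count of 997 called spots was 625 with neighbouring numbers as a random block and 381 with neighbouring numbers averaged, which leaves 3 values in each genotype. It ran from 863 to 996 when single arrays were dropped. The replicate block gave 1010 calls by limma. In each of these fits 0 steady genes were called, as in the fit of centred values (1000 calls), of deposited values (925) and of spots above 0 on all arrays (963). Averaging neighbouring numbers took AT1G54500 out of the set, since its genotypes then no longer overlapped.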
